A study of Mus musculus with 24 samples.

Results

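Microglia captured from the hippocampus of aged mice were compared with whole hippocampus, in saline-treated animals only. The comparison takes 8 of the 24 libraries of the study, the 3 saline microglia libraries (2, 3 and 4) and the 5 saline whole hippocampi (7143, 7146, 7152, 7155 and 7596), chosen by their labels and not by any measured value. All came from aged C57/Bl6 males, 20 months old by the methods of the study, which describe 8 intravenous injections over 24 days, and all 8 libraries used here are controls of the study's treatments, so nothing below concerns a treatment. For the microglia, the hippocampus was dissociated with enzymes and by mechanical force, myelin was removed with beads, and cells that carry CD11b on their surface were held on magnetic beads. The whole hippocampi were frozen after perfusion, without dissociation, and hold neurons, every kind of glia, vessels and whatever adjoining tissue was taken with them. Tissue, dissociation and capture differ together between the 2 groups and cannot be told apart. The labels do not say how the mice or the sequencing runs of the groups relate. The labels do not say whether a microglia library is 1 mouse or a pool, but a figure legend of the study counts 3 saline mice for its microglia sequencing. The p-values set a difference between the groups against the spread between these libraries.

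Microglia are the resident macrophages of the brain, and they depend on signalling through the receptor encoded by Csf1r. In the undisturbed brain they are recognized by surface proteins such as TMEM119 and P2RY12, and they clear debris and synapses with complement, Fc and scavenger receptors and a large lysosomal system. CD11b, the product of Itgam, is one chain of complement receptor 3 and is carried by microglia, by macrophages of the borders of the brain, and by blood monocytes and neutrophils. A CD11b capture is therefore a myeloid preparation, and its transcripts can be set against those of the tissue the cells came from.

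Levels are given in CPM, the reads of a gene as a share of the reads over the 24411 listed genes of a library, scaled to the same total in each. The microglia libraries held 19855188 to 36342162 reads and the hippocampi 6140510 to 10522699. In spite of more reads, the microglia libraries had a read in fewer genes, 10773 to 12333 against 16203 to 16671. They also varied far more. The median SD over libraries was 0.61 on log2(CPM + 1) in microglia and 0.24 in hippocampus, and 955 of the 9172 genes that reached 10 CPM in a microglia library (10.4%) were at 0 reads in another, against 5 of 10336 (0.0484%) in hippocampus. Rank correlations across genes were 0.84 to 0.89 between microglia libraries, 0.97 to 0.98 between hippocampi and 0.71 to 0.75 between the groups. The 45S pre-ribosomal RNA (Rn45s) was at 59198, 39460.3 and 25519.5 CPM in microglia and 16462 to 25348 CPM in hippocampus, so the libraries also differed in residual ribosomal RNA.

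Of 14181 genes tested, 9591 differed between microglia and hippocampus, most of them lower in microglia. A gene was called at a Benjamini-Hochberg adjusted p under 0.05 in limma on log2(CPM + 1), and 2271 (16.0%) were called higher and 7320 (51.6%) lower. Because most genes passed, a size was set beside the p. At a difference of 2 or more on that scale, a 4-fold change, 1102 genes (7.77%) were higher and 4389 (30.9%) lower, and the counts of list members below stand beside these shares. Fewer cells of a type and less RNA per cell cannot be told apart in such values, which are shares of all RNA of a preparation. The libraries of the groups did not overlap for 1092 of the 1102 and for 4227 of the 4389. The 1102 genes took 41.2 to 48.7% of the reads of a microglia library and 2.66 to 2.91% of those of a hippocampus, and the 4389 took 3.07 to 4.21% and 46.0 to 47.4%. Of the 4389, 1209 had 0 reads in all microglia libraries and 2981 had 0 in at least 1. The mean CPM of 4058 of them was at most 25% of the hippocampal mean, so the others exceeded 4-fold on the log scale only.

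**Figure D1:**
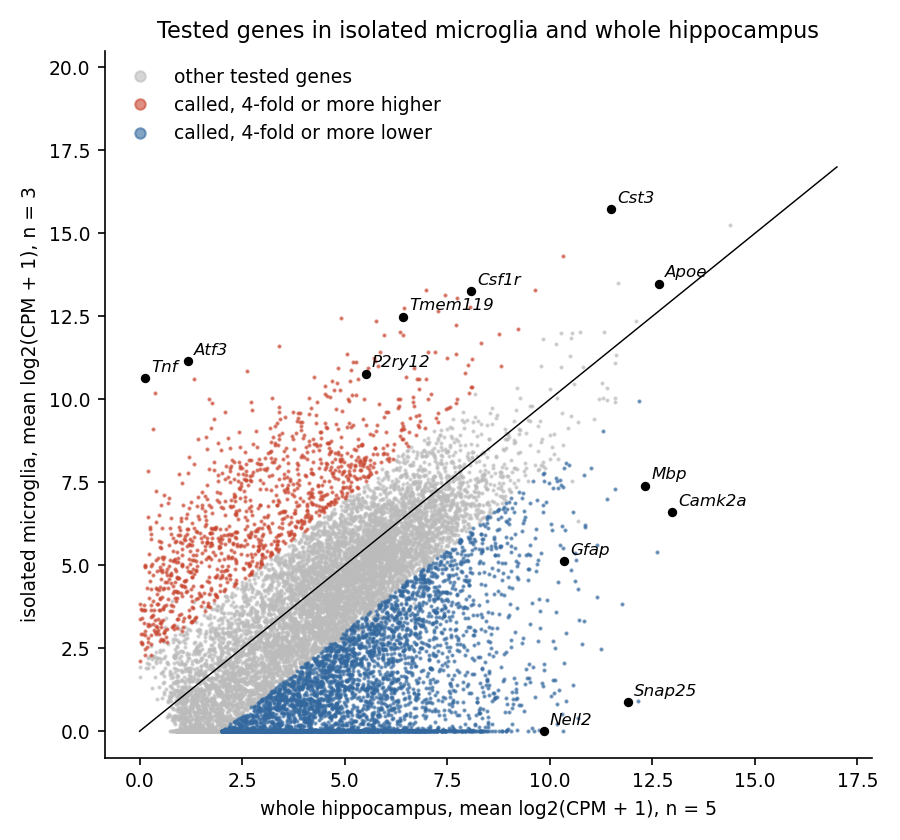
Mean log2(CPM + 1) of each of the 14181 tested genes in 5 whole hippocampi (horizontal) and 3 microglia libraries (vertical), with the line of equal values. The 1102 genes called 4-fold or more higher in microglia lie above the line in red, the 4389 called lower lie below it in blue, many of them on the floor at 0.

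Shares of a total are relative, and the median difference over all tested genes was -1.13 on the log2 scale. TMM scaling (edgeR's trimmed mean of M values) raised microglial CPM by a mean of 0.49 on the log2 scale relative to hippocampus. On log2(CPM + 1) values near 0 moved less, and the median then was -0.76. Differences near these sizes are reported as differences in share only. Because both groups share 1 estimate of spread in the test while microglia vary more, the fit was repeated with a weight for each group. It called 7794 genes in place of 9591, with 1088 higher and 4338 lower at 4-fold.

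The microglial markers were present at high levels in all 3 captured libraries and the neuronal marker was nearly absent. Tmem119, a surface protein of microglia (chromosome 5, 113793729 to 113800396, GRCm38.p6), was at 5298, 5877 and 6097 CPM in microglia libraries 2, 3 and 4. It was at 81.1, 80.6, 87.0, 93.5 and 79.1 CPM in hippocampi 7143, 7146, 7152, 7155 and 7596. Every microglia library lay far above every hippocampus, at a mean of 68.3-fold, and the difference was 6.08 ± 0.10 on the log2 scale (SE, limma, adjusted p = 3.5e-09). P2ry12, the purinergic receptor that guides microglial processes to injury (chromosome 3, 59216271 to 59262985), was at 1408, 1956 and 1939.8 CPM against 31.6, 58.9, 44.3, 59.0 and 36.2 CPM, 38.4-fold by the means (5.26 ± 0.24, limma, adjusted p = 3.0e-07). Csf1r, the receptor for the 2 growth factors on which microglia survive, was at 6925, 10451 and 12812 CPM against 298, 233, 312, 286 and 239 CPM, 36.8-fold (5.16 ± 0.20, limma, adjusted p = 1.1e-07). Library 2 was the lowest of the microglia libraries for all 3 of these genes. Snap25, which encodes a protein of the presynaptic fusion machinery (chromosome 2, 136713439 to 136782428), was at 0.0504, 0 and 4.95 CPM in microglia and 3450.0, 4295, 4008, 3760.2 and 3664 CPM in hippocampus. The microglial level was 0.0435% of the hippocampal one (-11.02 ± 0.54, limma, adjusted p = 4.1e-07), and most of what there was lay in library 4. Itgam, the transcript of the antigen used for capture, was at 1175, 1194 and 979 CPM against 25.4 to 45.8 CPM, 30.9-fold, and is given as a description of the capture with no test.

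**Figure D2:**
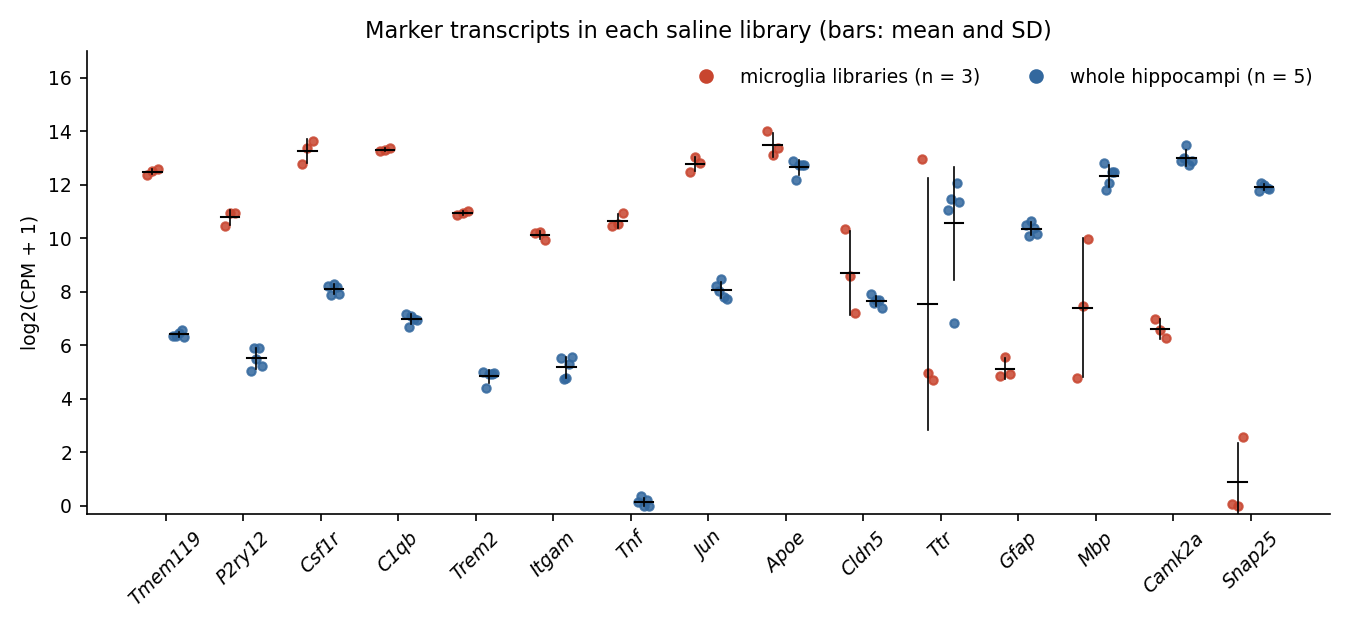
Log2(CPM + 1) of 15 transcripts in each library, microglia in red (n = 3) and whole hippocampi in blue (n = 5), with the mean and SD of each group as bars. Tmem119, P2ry12 and Csf1r do not overlap between the groups, Cldn5 and Ttr do, and 1 microglia library stands far above the others for Ttr.

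The list of homeostatic microglial genes had 26 members, among them Gpr84, which is not specific to the homeostatic state. All 26 of 26 were tested and all were at least 4-fold higher in microglia, where the share among all genes was 7.77%. Their median difference was 5.35, against -1.13 over all genes. None overlapped between the groups, which was also so for 1092 of the 1102 genes at least 4-fold higher. Together they summed to 58814, 72670.3 and 75679 CPM in the microglia libraries and to 1711 to 1933 CPM in the hippocampi. These sums were 3211%, 3967% and 4132% of the hippocampal mean, so libraries 3 and 4 lay close together and library 2 below them. Of members that took many reads, Cx3cr1, the fractalkine receptor, was at 5323, 7429 and 6744 CPM against 143 to 169 CPM. The list spanned a wide range of differences. Mertk, a receptor for dying cells that astrocytes also carry, was lowest at 2.69 ± 0.16 (263, 288 and 323 CPM against 33.9 to 48.5 CPM), and Sparc, a matrix protein that vessels also make, was next at 3.37 ± 0.07. Gpr84, a receptor for medium-chain fatty acids that is induced in activated myeloid cells, was highest at 8.30 ± 0.35 (739, 1113 and 1289.7 CPM against 1.14 to 3.94 CPM). With a weight for each group 25 of the 26 were still called, all but Tgfbr1, the type I receptor for TGF-beta (limma with group weights, adjusted p = 0.055).

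Of 26 transcription factors of myeloid cells, 24 passed the filter, 15 were at least 4-fold higher and 1 was at least 4-fold lower, with a median of 3.32. Irf8, a factor that myeloid precursors need to become microglia, was at 697, 766 and 896 CPM against 9.88 to 14.3 CPM (5.87 ± 0.17). Irf5, which acts below Toll-like receptors, was at 542, 662 and 882 CPM against 6.78 to 13.0 CPM (5.98 ± 0.27). Etv1, an ETS factor, fell by 2.00 on the log2 scale and was the exception at 4-fold (19.6, 26.7 and 19.9 CPM against 63.7 to 105 CPM). It lay at the threshold and ran from -2.14 to -1.52 over the alternatives. It was under 4-fold in many of them, among them TMM and median-of-ratios scaling, thinned reads and a pseudocount of 4. The same was so without microglia library 4 and without any 1 of the hippocampi except 7152. Mef2c, used by microglia and by neurons, was 2.92-fold higher in microglia (349, 355 and 306 CPM against 101 to 130.0 CPM).

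Promoter windows of RefSeq (GRCm38.p6, 250 bases before to 50 after the first listed start of a gene) were found for 10745 of the 14181 tested genes, and 4 short motifs were searched on both strands. The motif of PU.1, the ETS factor encoded by Spi1 that is required for microglia, was GAGGAAGT. It was in 8.40% of the windows of the genes at least 4-fold higher in microglia (72 of 857), in 1.61% of those at least 4-fold lower (52 of 3221), in 2.85% of all tested genes (306 of 10745) and in 3.28% of all 27025 windows. The motif of REST, the repressor of neuronal genes, was TTCAGCACC, and its shares were 0.233% (2 of 857), 0.621% (20 of 3221), 0.437% and 0.359%. TCACGTGA, bound by TFEB and MITF, was in 1.75%, 1.18%, 1.85% and 1.01%, and TGACGTCA, bound by CREB, in 2.33%, 2.86%, 3.25% and 1.88%, in the same order. The last 2 read the same on both strands, and none of the 4 contains another. The windows of Ctss, Pf4 and Syn1 are shown because each gene differed by over 4-fold and its window holds a match. The capitals mark the motif, which is the reverse complement in Ctss and Pf4. A match is a run of letters and not a measured site.
Ctss, cathepsin S of microglial lysosomes (chr3:95526758-95526815, plus strand): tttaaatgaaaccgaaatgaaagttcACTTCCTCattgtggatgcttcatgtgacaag
Pf4, platelet factor 4 (chr5:90772399-90772458, plus strand): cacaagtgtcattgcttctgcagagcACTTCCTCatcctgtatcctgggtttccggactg
Syn1, synapsin I of synaptic vesicles (chrX:20921116-20921168, minus strand): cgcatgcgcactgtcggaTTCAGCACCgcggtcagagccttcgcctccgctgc
Of the homeostatic list, 19 genes had a window and Ctss alone held the PU.1 motif. The window of Pf4 was chosen after its values were seen. Ctss was at 8128, 9770.1 and 9326 CPM in microglia and 161 to 197 CPM in hippocampus, and Syn1, which tethers vesicles in the nerve terminal, at 0.0504, 0.475 and 1.73 CPM and 367 to 749.5 CPM.

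**Figure D3:**
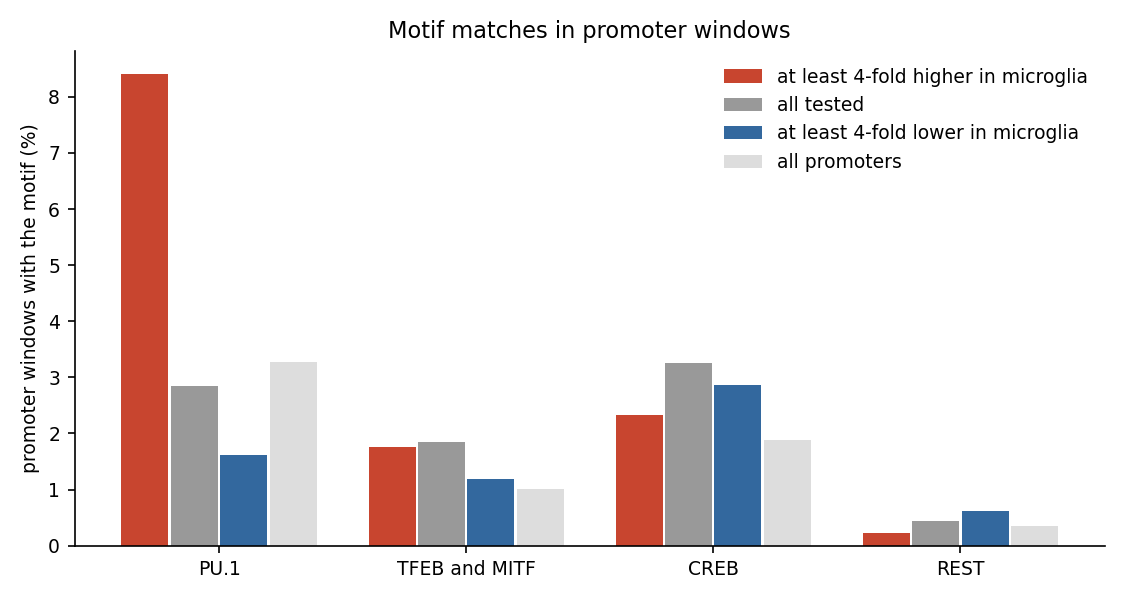
Percent of promoter windows that hold each motif on either strand, for genes at least 4-fold higher in microglia (857 windows), all tested genes (10745), genes at least 4-fold lower (3221) and all 27025 windows. The PU.1 bar of the higher genes, 8.40%, stands above the 2.85% of all tested genes; the other 3 motifs lie at 3.25% or less in every class.

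The 12 genes with the largest rise in microglia were mostly cytokines, chemokines and genes of the early inflammatory response. They were Tnf, Atf3, Ccl4, Il1a, Ccl3, Gpr84, Nfkbiz, Icam1, Socs3, Il1b, Ccrl2 and Cd83, the largest differences among genes called at 4-fold without overlap and with a mean of at least 50 CPM in microglia. Tnf, the cytokine tumour necrosis factor, was at 1405, 1487 and 1944 CPM in the microglia libraries and 0.111, 0.285, 0, 0.154 and 0 CPM in the hippocampi, where all 5 libraries together held 5 reads. The difference was 10.50 ± 0.22 on the log2 scale (limma, adjusted p = 8.1e-09). Atf3, a transcription factor of the acute stress response, was at 1947, 2201 and 2714 CPM against 0.665 to 2.67 CPM (9.96 ± 0.28). Ccl4, a chemokine that draws monocytes, was at 1162, 1186 and 1121 CPM against 0.116 to 0.616 CPM (9.79 ± 0.21), and its neighbour in function Ccl3 at 547, 587 and 505 CPM against 0 to 0.814 CPM (8.76 ± 0.27). The 3 microglia libraries gave similar levels of each of these transcripts while the hippocampi were at or near 0.

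The list of cytokines and NF-kB signalling had 29 tested members of 32, 20 of them at least 4-fold higher and 3 at least 4-fold lower, with a median of 4.27. Il1a, interleukin 1 alpha, was at 1486, 1623 and 1572 CPM against 1.33 to 1.79 CPM, and Il1b, interleukin 1 beta, was at 176, 259 and 262 CPM against 0 to 0.326 CPM. Nfkbia, the inhibitor that NF-kB induces to hold itself back, was at 5154, 5441 and 5087 CPM against 44.2 to 61.0 CPM (6.59 ± 0.12). Nfkbiz, an atypical inhibitor of the same family, was at 1604, 1883 and 2153 CPM against 3.59 to 6.68 CPM, and Nfkb1, the p105 and p50 subunit, at 205, 233 and 306 CPM against 5.39 to 8.86 CPM. Tnfsf13b, the B cell survival factor BAFF, was at 120.2, 104 and 61.4 CPM against 0.616 to 1.79 CPM (5.38 ± 0.31). The members that fell were Il33 (-3.97 ± 0.33), an alarmin of astrocytes and oligodendrocytes, and the receptor chains Il1rap (-3.24 ± 0.37) and Il1r1 (-2.65 ± 0.41). Il33 was at 6.75, 6.56 and 2.01 CPM in microglia and 74.2 to 100.3 CPM in hippocampus, so the ligands of the interleukin 1 family divided between the preparations.

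Of the chemokines and receptors, 17 of 22 tested members were at least 4-fold higher and 4 at least 4-fold lower, with a median of 4.69. Ccrl2, an atypical receptor that presents chemerin, was at 493, 742 and 838 CPM against 1.66 to 3.39 CPM. The 4 that fell were Cx3cl1, Cxcl14, Ackr3 and Ackr1, of which Cx3cl1 is the neuronal ligand of CX3CR1 and Ackr3 and Ackr1 are scavenging receptors. Cxcr3, the receptor to which platelet factor 4 and other chemokines bind, was at 0 reads in all 3 microglia libraries and at 0 in 2 of the hippocampi, with 7 reads in the other 3 together, and was not tested. The limit that 3 reads set over the microglia libraries together is 0.0388 CPM. Pf4 itself, which macrophages of the brain borders make as well as platelets, was at 13.4, 26.4 and 44.3 CPM in microglia and 0.475 to 1.08 CPM in hippocampus (3.96 ± 0.36, limma, adjusted p = 1.8e-05).

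Immediate early genes, which are switched on within minutes of a stimulus, were mostly higher. Of 26 tested, 19 were at least 4-fold higher and 6 at least 4-fold lower, with a median of 4.58, and their sum was 26548, 34064 and 31968 CPM against 1045 to 1479.6 CPM. Jun, a subunit of the AP-1 factor, was at 5689.5, 8306 and 7202 CPM against 213 to 356 CPM (4.72 ± 0.19). Junb, its relative, was at 5371, 8105 and 7493 CPM against 73.0 to 105 CPM (6.30 ± 0.17). Dusp1, a phosphatase that ends MAP kinase signals, was at 3285, 2302 and 2828 CPM against 45.6 to 65.1 CPM, and Egr1 at 2369, 3322 and 2593 CPM against 113 to 155 CPM. Zfp36, which destabilizes cytokine mRNA, was at 537, 595 and 555 CPM against 0.977 to 4.16 CPM (7.40 ± 0.31). The 6 that fell were Arc, Nr4a2, Nr4a3, Homer1, Egr3 and Npas4, genes best known for their response to neuronal activity. Arc, which acts at the synapse, was at 0.101, 11.1 and 113 CPM in microglia and 218 to 453 CPM in hippocampus. The calls of Arc, Nr4a2 and Egr3 did not hold in edgeR, which called 3 of the 6 lower. The microglia alone went through enzymatic dissociation and magnetic capture, and the part of this handling in the levels of early response and cytokine transcripts cannot be told apart from that of the cell type.

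The list of heat shock and dissociation stress genes moved less evenly. Of 20 tested, 9 were at least 4-fold higher, 3 more were higher by less, and 4 were lower, with a median of 1.57. Hspa1a, the inducible HSP70, was at 1171, 3092 and 2999 CPM against 32.2 to 43.2 CPM (5.83 ± 0.31), lowest in library 2. Gadd45b was at 458, 501 and 443 CPM against 6.65 to 10.6 CPM. The constitutive chaperone Hspa8 was at 3365, 5614 and 7687 CPM against 3861 to 4793 CPM and was not called (0.25 ± 0.23, limma, adjusted p = 0.36), although it was called higher under TMM scaling and without microglia library 2. Hsph1, a partner of HSP70, was lower at 8.61, 84.4 and 125 CPM against 406 to 467 CPM. Hsp90ab1 was lower at -0.77 ± 0.12, a difference that lost its call under TMM scaling, as did that of Hsp90aa1, which then was 0.05.

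Genes for sensing and engulfing were higher in microglia with few exceptions. Of the Toll-like receptors and adaptors, 16 of 23 tested were at least 4-fold higher and none was lower, with a median of 4.27. Tlr2, a receptor for bacterial lipoproteins, was at 686, 796 and 866 CPM against 2.28 to 4.54 CPM (7.52 ± 0.25), and Tlr6, its partner, at 133, 97.8 and 104 CPM against 0.665 to 1.63 CPM. Unc93b1, which carries nucleic acid-sensing Toll-like receptors to endosomes, was at 1755, 2645 and 2982 CPM against 43.5 to 59.0 CPM. Of adaptors shared with other cells, Irak1 was at 4.99, 6.42 and 17.2 CPM against 13.3 to 14.3 CPM and was not called, and Tirap was at 0.907, 35.0 and 28.8 CPM against 5.42 to 8.16 CPM, low in library 2 alone and not called either. Irak1 was called lower without library 4 and Tirap higher without library 2. Of the Fc and phagocytic receptors, 14 of 22 tested were at least 4-fold higher. Cd14, a co-receptor for endotoxin, was at 1138, 791 and 987 CPM against 4.01 to 7.88 CPM, Trem2, a lipid receptor of microglia, at 1849, 1975 and 2069.7 CPM against 20.0 to 30.9 CPM, and Fcgr3, an activating receptor for antibodies, at 1806, 1931 and 1979.5 CPM against 31.4 to 37.2 CPM. Tyro3, the member of the MERTK family that neurons carry, had 1 read in the 3 microglia libraries together against 66.1 to 112 CPM. Lrp1, the other member that was lower, was at 115, 122 and 151 CPM against 153 to 217 CPM, and its difference was 0.06 under TMM scaling.

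Complement genes differed in both directions. Leaving out Itgam as the capture antigen, 20 members were tested, 7 were at least 4-fold higher and 4 were lower, 2 of those by at least 4-fold. The median was 0.10 and its sign was not stable. It was -0.17 without microglia library 2 or without library 4, -0.46 with a pseudocount of 0.25, -0.21 with no filter and 1.22 without library 3, and was also above 0 in edgeR and DESeq2. Without library 2 the lower members were 7, 5 of them by at least 4-fold, and without library 3 they were 2. C1qb, a chain of the first component, was at 9767, 10077 and 10569.7 CPM against 103 to 144 CPM (6.33 ± 0.12, limma, adjusted p = 5.7e-09), and C1qa at 3621, 4391 and 3817 CPM against 48.2 to 72.5 CPM. The receptors for the cleaved fragments showed the largest differences, C3ar1 at 779, 739.6 and 954 CPM against 3.99 to 8.53 CPM (6.94 ± 0.25) and C5ar1 at 373, 349 and 372 CPM against 0.695 to 3.42 CPM (6.88 ± 0.33). Among the lower members were Clu (clusterin), which astrocytes secrete, at 315, 116 and 9.44 CPM against 1127 to 1379.8 CPM, and C4b at 64.4, 20.9 and 25.7 CPM against 83.9 to 173 CPM. Cd55 and Serping1, regulators of the cascade, were also called lower, but neither call held in DESeq2 or edgeR.

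Of the genes for presentation on MHC molecules, 19 of 23 tested were at least 4-fold higher and none was lower, with a median of 3.84. B2m, the light chain of class I molecules, was at 2455, 1874 and 1702 CPM against 90.0 to 128 CPM. H2-K1 was at 1613, 1617 and 1669 CPM against 76.2 to 107 CPM and H2-D1 at 3161, 2169.8 and 2650.5 CPM against 179 to 256 CPM, although reads of these near-identical class I genes can be shared. H2-DMb1, which loads peptides on class II molecules, was at 199, 267 and 248 CPM against 5.91 to 11.6 CPM. The interferon response list was higher to a smaller degree, with 15 of 29 at least 4-fold higher, none lower and a median of 2.02. Slfn2 was at 219.9, 194 and 221 CPM against 2.12 to 3.52 CPM. Library 2 was high here, and the sum of the list was 1762, 1002 and 1079.7 CPM in the microglia libraries against 273 to 340.3 CPM in the hippocampi. Without library 2, 10 members were 4-fold higher, 2 were lower and the median was 1.51. With a pseudocount of 4, 6 members were 4-fold higher, 1 was lower and the median was 1.64. Ifitm3, a membrane protein that blocks viral entry, was at 213, 30.7 and 40.1 CPM against 17.8 to 33.7 CPM and was not called, but was called higher without library 3, without library 4 and under TMM scaling.

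Genes that microglia raise around amyloid plaques and with age, listed as disease-associated, were mostly higher. Of 28 tested, 14 were at least 4-fold higher, 7 higher by less and 2 at least 4-fold lower, with a median of 2.46. Cd68, a glycoprotein of phagocyte lysosomes, was at 1324, 936 and 1223 CPM against 19.7 to 24.1 CPM (5.66 ± 0.15, limma, adjusted p = 2.2e-08), and Cd52 at 129, 77.5 and 61.9 CPM against 0.855 to 1.47 CPM. Apoe, the lipid carrier made by astrocytes and microglia, was at 16272, 8892 and 10439 CPM against 4608 to 7598 CPM. Its difference of 0.83 ± 0.22 was not called with a weight for each group. Fabp5 and Ank were lower, Fabp5 at 6.75, 3.66 and 6.74 CPM against 45.4 to 57.2 CPM. Aif1, which encodes the cytoplasmic marker IBA1, was at 324, 298 and 243 CPM against 4.37 to 7.33 CPM (5.46 ± 0.23, limma, adjusted p = 1.8e-07).

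Most lysosomal genes were higher, while several subunits of the proton pump were lower. Of 47 lysosomal genes tested, 33 were higher, 19 of them by at least 4-fold, and 9 were lower, with a median of 1.73. The lower ones reached 4-fold for 3, or for 5 without microglia library 2 or without hippocampus 7152. Ctsd, cathepsin D, was at 15317, 20961 and 26052 CPM against 1126 to 1408 CPM (3.99 ± 0.16), and Ctsb, cathepsin B, at 3613, 4091 and 4737 CPM against 1138 to 1312 CPM. Of the vacuolar proton pump, which also serves synaptic vesicles, Tcirg1 was among the genes at least 4-fold higher and the other 5 listed subunits and accessory proteins were lower. Atp6v1b2 was at 211, 305 and 267 CPM against 1266 to 1526 CPM, Atp6v1a at 118, 206 and 164 CPM against 1076 to 1316 CPM and Atp6v0d1 at 22.3, 22.2 and 39.5 CPM against 268 to 446 CPM. The smaller differences of the pump, Atp6v0c (-0.69 ± 0.13) and Atp6ap1 (-0.52 ± 0.09), lost their calls under TMM scaling. Gaa, the acid glucosidase of glycogen, was lower at 310.4, 253 and 324 CPM against 1047 to 1356 CPM. Cst3 (cystatin C), a secreted inhibitor of cathepsin B, had the highest mean CPM of any gene in microglia, although Rn45s was above it in library 2. It was at 55266, 59887 and 49473 CPM against 2534 to 3086 CPM.

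**Figure D4:**
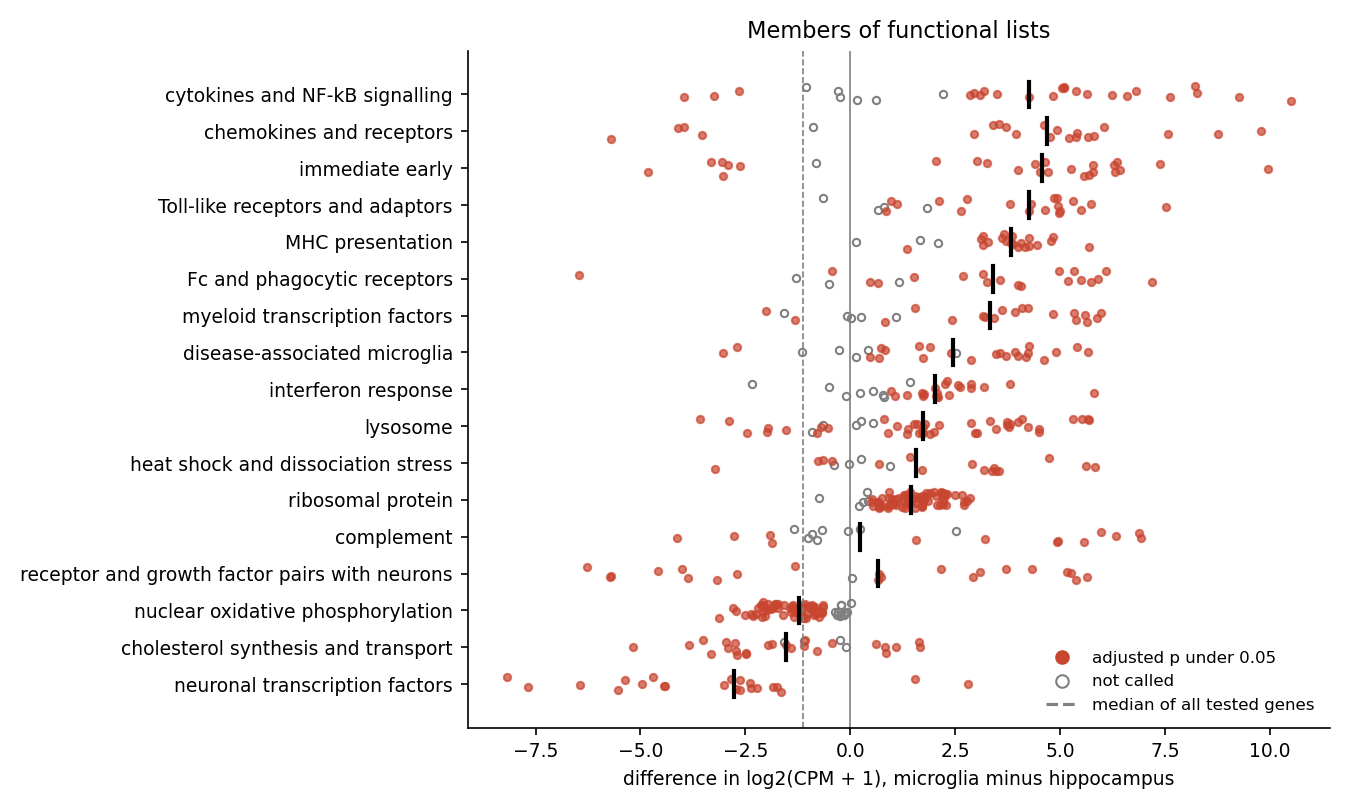
Difference in log2(CPM + 1), microglia minus hippocampus, of each tested member of 17 functional lists, filled where the adjusted p in limma was under 0.05 and open otherwise, with the list median as a black bar. The medians run from 4.69 for chemokines and receptors to -2.78 for neuronal transcription factors, and the dashed line marks the -1.13 of all tested genes. Itgam is drawn among the complement genes as a description.

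Genes listed for other CD11b-bearing cells were mostly higher too, and whether other cells or the microglia themselves carried them was not tested. Of 12 genes of macrophages at the brain borders, 10 were tested and 9 were at least 4-fold higher, with sums of 278, 686 and 689 CPM against 26.4 to 41.1 CPM. Mrc1, the mannose receptor, was at 9.12, 69.1 and 74.8 CPM against 2.44 to 10.5 CPM, F13a1 at 27.5, 114 and 133 CPM against 4.40 to 7.51 CPM and Cd163 at 0.856, 35.5 and 33.1 CPM against 1.39 to 3.23 CPM. Libraries 3 and 4 were alike and library 2 was low, within the range of the hippocampi for Mrc1 and below it for Cd163. Cd163 was the tested member not called, and it was called higher without library 2, with a pseudocount of 4, in edgeR and in DESeq2. Of the neutrophil and monocyte genes, 8 of 10 tested were at least 4-fold higher and Vcan, a matrix proteoglycan that oligodendrocyte precursors also make, was lower (-2.98 ± 0.28), with sums of 707, 715 and 1024 CPM against 17.9 to 23.9 CPM. Most of that sum was Csf3r, a receptor that microglia carry too (536, 536 and 623 CPM against 3.91 to 14.0 CPM). The granule genes S100a9, Ngp and Ltf were at 45.5, 27.2 and 50.1 CPM, at 40.7, 29.1 and 73.8 CPM and at 2.06, 52.0 and 133 CPM, each under 1 CPM in every hippocampus. Lymphocyte genes gave few reads. Of 16 listed in the files, 8 had 0 reads in all microglia libraries and 2 passed the filter. Cd79b, a B cell receptor chain that microglia are also known to transcribe, was higher at 14.9, 24.2 and 27.8 CPM against 0.116 to 0.665 CPM, and Lck was not called except without library 2.

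Neuronal transcripts were at or near 0 in all 3 microglia libraries. The 12 genes with the largest fall, among those without overlap and with a mean of at least 50 CPM in hippocampus, included Ndrg4, Snap25, Camkv, Meg3, Nell2, Syp, Gria1, Chgb, Eno2, Syt1 and Tmem59l, nearly all of them neuronal. Ndrg4 was at 0.0504, 0.428 and 3.41 CPM in microglia and 4747, 4522, 4395, 4507 and 4597 CPM in hippocampus (-11.24 ± 0.40, limma, adjusted p = 7.8e-08). Nell2, a secreted protein of neurons, had 0 reads in the microglia libraries and was at 861, 857, 1082, 873 and 964 CPM in the hippocampi, at least 23879-fold higher there than the floor of 3 reads over the microglia libraries together. Chgb, a granule protein of secretory neurons, also had 0 reads, against 675 to 944 CPM. Gria1, an AMPA receptor subunit, had 1 read in the 3 libraries together against 726 to 964 CPM, and Meg3, a noncoding RNA of neuronal nuclei, was at 0.0504, 0 and 0.495 CPM against 863 to 1547 CPM. Library 4 held most of the little Snap25, Syp and Ndrg4 that was read.

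By list, 21 of 22 general neuronal genes, 17 of 20 excitatory, 17 of 17 interneuron and 24 of 25 vesicle release genes were at least 4-fold lower, against 30.9% of all genes. The medians were -7.01, -6.34, -4.91 and -6.55. On the ratio of the group means, with genes without a read set at the floor of 3 reads, they were -9.71, -10.33, -8.53 and -8.26. Of the excitatory and interneuron genes, 12 and 11 had 0 reads in all microglia libraries. Gad1, the enzyme that makes GABA, was at 0 against 433 to 464 CPM, and Fibcd1, a marker of CA1 pyramidal cells, at 0 against 290.4 to 399.6 CPM.

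The neuronal reads that remained came from a few genes. The general neuronal list summed to 507, 511 and 602 CPM in microglia and 20279 to 24862 CPM in hippocampus, and without Ywhah, a 14-3-3 protein, the microglial sums were 179, 136 and 117 CPM. Ywhah was at 328, 376 and 485 CPM against 533 to 905 CPM, and its difference of -0.90 ± 0.20 lost its call under TMM scaling and with a weight for each group. Camk2a, the kinase of the postsynaptic density, was at 127, 94.7 and 75.6 CPM against 7608, 8056, 11394, 6725 and 7568 CPM, 1.20% of the hippocampal level. Of the vesicle release list, Syngr1 alone was not called lower. Syngr1 (synaptogyrin 1) was at 336, 395 and 367 CPM against 316 to 390.0 CPM (0.03 ± 0.11), and without it the sums of the list fell from 469.6, 483 and 509.9 CPM to 133, 88.8 and 143 CPM.

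Of 22 neuronal transcription factors, 17 were at least 4-fold lower and 11 had 0 reads in all microglia libraries, with a median of -2.78. Neurod6, a factor of pyramidal neurons, was at 0 against 225 to 337 CPM, and Myt1l at 0, 0 and 0.303 CPM against 207 to 248 CPM. The members that were higher were Mef2c, given above, and Rest, the repressor that keeps neuronal genes silent in other cells. Rest was at 52.6, 29.8 and 9.85 CPM in microglia and 1.79 to 4.06 CPM in hippocampus (2.82 ± 0.50, limma, adjusted p = 0.0012), with the highest value in library 2.

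Ligands and receptors that link neurons and microglia differed in both directions. Csf1r and Cx3cr1, the microglial receptors given above, were higher, and the ligands made by neurons were lower. Il34, the neuronal ligand of CSF1R, was at 0, 0.0475 and 2.34 CPM in microglia and 73.1 to 86.6 CPM in hippocampus (-5.72 ± 0.40, limma, adjusted p = 3.3e-06). Cx3cl1, fractalkine, was at 52.2, 16.2 and 11.8 CPM against 1118 to 1257 CPM (-5.69 ± 0.40). Cd200, which restrains microglia through its receptor, was at 17.3, 15.9 and 1.73 CPM against 117 to 165 CPM. Cd47, the signal against engulfment, is made by many cells and was at 64.7, 68.4 and 45.6 CPM against 122 to 176 CPM. Ptprc, the leukocyte phosphatase CD45, was at 293, 233 and 174 CPM against 1.51 to 6.19 CPM. Among growth factors, Bdnf had 0 reads in every microglia library and was at 64.0, 73.5, 103, 70.2 and 73.4 CPM in the hippocampi, at least 1979-fold higher there than the floor of 3 reads. Its receptor Ntrk2 was at 119, 39.1 and 4.60 CPM against 658 to 797 CPM and the receptor Ngfr was at 0 against 6.37 to 9.86 CPM. Ntf3 was at 3.93, 0 and 0 CPM against 6.98 to 14.5 CPM and its call did not hold in DESeq2 or edgeR. Tmem108, a membrane protein of neuronal spines, was at 0 against 37.9 to 65.2 CPM. Over the whole list of 22 tested members, 9 were at least 4-fold higher and 8 at least 4-fold lower. Among all genes the shares were 7.77% and 30.9%, so the lower members lie near the share of all genes.

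Astrocyte transcripts were also lower, and the microglia libraries differed among themselves. Of 20 tested, 17 were at least 4-fold lower and 1 was higher, with a median of -3.80 and sums of 2425, 1714 and 1158 CPM against 9454 to 10989 CPM. Library 2 held the most astrocyte reads and library 4 the fewest. Aldoc was at 466, 238 and 33.9 CPM against 2723 to 3347 CPM, Slc1a2, the main glutamate transporter, at 203, 63.0 and 22.1 CPM against 996 to 1196 CPM, and Slc1a3 at 439.6, 319 and 177 CPM against 963 to 1127 CPM. Gfap, the filament protein of astrocytes, did not follow that order and was at 28.2, 46.4 and 29.6 CPM against 1081 to 1610.3 CPM. Glul, glutamine synthetase, was the member that was higher (641, 739 and 849.8 CPM against 359 to 477 CPM, 0.81 ± 0.13).

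Myelin and oligodendrocyte transcripts were lower too, with library 4 the highest. Of 23 tested, 19 were at least 4-fold lower, with a median of -4.42. Mbp, myelin basic protein, was at 26.3, 174 and 1003 CPM against 7245, 3529, 4255, 5699.7 and 5691 CPM. The microglia libraries thus ranged widely for a single myelin gene, in a preparation from which myelin had been removed. The sum of the list, 2889.6, 4846 and 6158 CPM, was mostly Trf, transferrin, which was higher in microglia (2472, 4265 and 4811 CPM against 1036 to 1999 CPM), a call that did not hold with a weight for each group. Without Trf the sums were 418, 581 and 1347 CPM against 6348 to 11958 CPM. Precursors of oligodendrocytes left almost no reads. Of 10 tested genes, 9 were at least 4-fold lower, Pdgfra was at 1.41, 0.0475 and 0 CPM against 14.4 to 52.9 CPM, and Bcas1, which maturing oligodendrocytes express, was 19.7 CPM in library 4, a call that did not hold in edgeR.

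The endothelial result depended on which microglia library was left out. Of 20 tested, 15 were not called, 3 were higher and 2 lower, with a median of 0.33 against -1.13 over all genes. The libraries disagreed. The sums were 7054, 2331 and 1266 CPM in microglia libraries 2, 3 and 4 and 1575 to 1856 CPM in the hippocampi, 413%, 137% and 74.2% of the hippocampal mean. Cldn5, a protein of tight junctions, was at 1294, 379.5 and 146 CPM against 242, 192, 203, 208 and 166 CPM and was not called (1.05 ± 0.58, 95% interval -0.28 to 2.38, limma, adjusted p = 0.14). It was called higher without library 4, under TMM scaling, in edgeR and in DESeq2. Slc2a1, the glucose transporter of the blood-brain barrier, was at 1098, 497 and 345 CPM against 154 to 241 CPM and Pecam1, which myeloid cells also carry, at 129.6, 113 and 111 CPM against 26.2 to 39.6 CPM. Without library 2 the median of the list was -0.43, and 2 members were higher and 4 lower. Without library 4 it was 1.45, and 11 were higher, 3 of them by at least 4-fold, and 1 lower. Under TMM scaling the median was 0.80. The calls of the lower members, Tek and Cdh5, did not hold under several of the alternatives.

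Mural cells, which wrap the vessels, showed the same order of libraries, with library 2 far above the others. Their sums were 1166, 236 and 92.6 CPM against 277 to 397 CPM, and 10 of 12 tested members were not called. Without library 2, 6 were lower (median -1.19), and without library 4, 4 were higher (median 0.47). The median difference was -0.33 on the log scale, while the median ratio of group means was 0.71 (log2), the opposite sign. Rgs5 was at 148, 18.5 and 9.44 CPM against 30.4 to 44.8 CPM and Myh11, the myosin of smooth muscle, at 151, 6.61 and 25.7 CPM against 9.77 to 18.2 CPM. Pdgfrb, the receptor that defines pericytes, was lower in all 3 libraries, at 0.403, 0.0475 and 0.0275 CPM against 24.0 to 40.1 CPM. Fibroblast and meningeal genes were lower, with 11 of 15 at least 4-fold, or 7 in edgeR and 6 with a pseudocount of 4. Dcn (decorin), whose call did not hold in edgeR, was at 18.8, 0.0475 and 0 CPM against 69.3 to 198 CPM. Col6a3, a collagen chain, was higher, at 28.2, 10.0 and 20.3 CPM against 1.52 to 3.65 CPM (2.50 ± 0.38).

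The choroid plexus, which lies against the hippocampus in the ventricle, left an uneven trace. Ttr, transthyretin, was at 8013, 30.1 and 25.2 CPM in microglia libraries 2, 3 and 4. In hippocampi 7143, 7146, 7152, 7155 and 7596 it was at 2135, 2853, 112, 4224 and 2609 CPM. Library 2 was the highest of all 8 and libraries 3 and 4 the lowest, and among the hippocampi 7152 was far below the others. The list summed to 11378, 49.3 and 39.0 CPM in microglia and 503 to 8590.4 CPM in hippocampus, with 15 of 20 members not called. Without library 2, 19 of the 20 were at least 4-fold lower in microglia, 11 were without hippocampus 7152, and 3 were without microglia library 3 or without library 4. Enpp2 followed Ttr at 2618, 15.8 and 10.7 CPM against 311 to 3489.8 CPM. Genes of ependymal cilia were also highest in library 2 among the microglia, with sums of 89.0, 4.09 and 8.67 CPM against 69.5 to 107 CPM, and 6 of 18 members at least 4-fold lower, or 9 without library 2, 11 in DESeq2 and 0 with a pseudocount of 4. Red cell genes differed in both directions. Of 7 tested, 2 were higher, both alpha globins, and 3 lower, and the sums were 950.1, 99.1 and 120.4 CPM against 769 to 809 CPM. Without library 2 no member was 4-fold higher and 1 was higher by less. Hba-a1, alpha globin, was at 666, 51.7 and 26.7 CPM against 3.80 to 16.9 CPM, although the alpha globin copies share reads. Among the lower members, Bpgm, which sets the oxygen affinity of haemoglobin, differed by -2.27 ± 0.15 and Fech, the last enzyme of haem synthesis, by -1.85 ± 0.34. Of the 3 microglia libraries, library 2 therefore held the most endothelial, mural, choroid plexus, ependymal and red cell reads and the fewest of border macrophages, and the part of these cells in its other values was not tested.

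**Figure D5:**
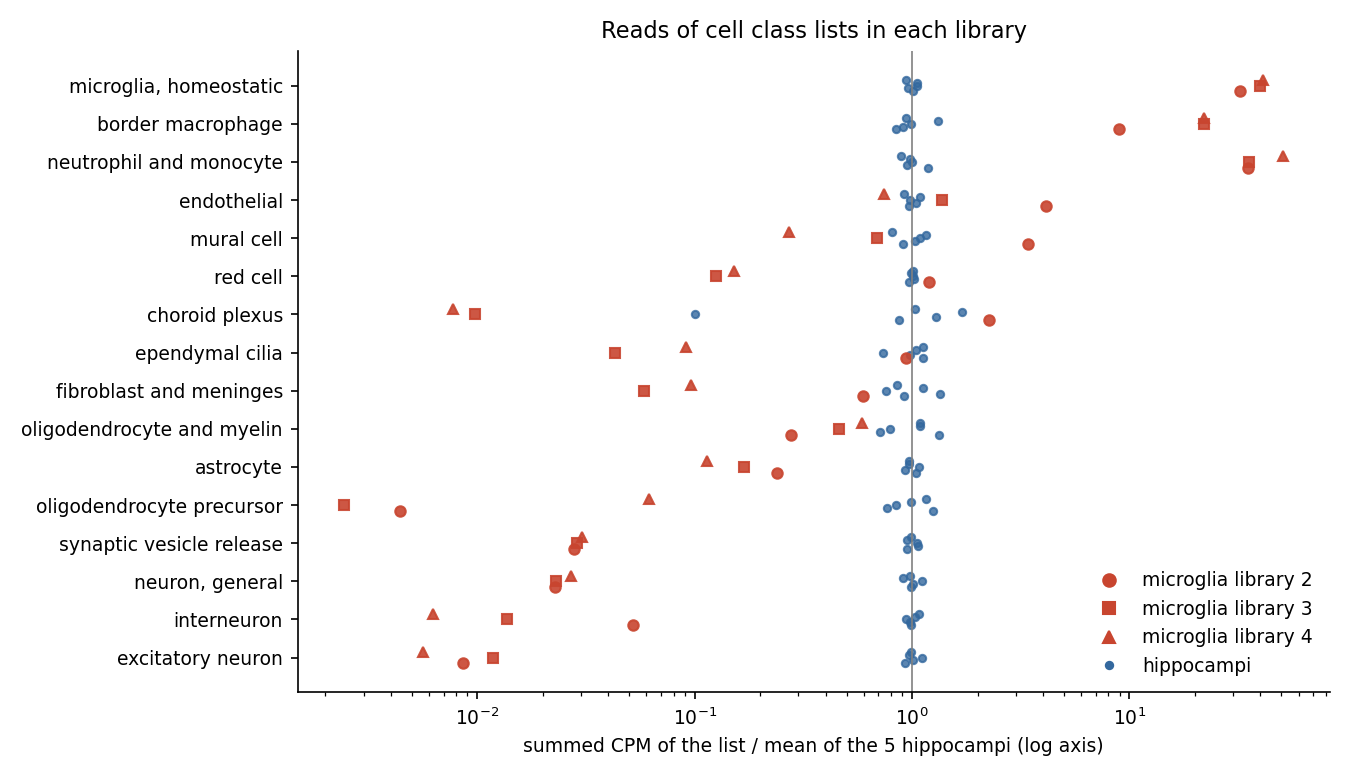
Summed CPM of 16 cell class lists in each library, divided by the mean of the 5 hippocampi, on a log axis, with microglia libraries 2, 3 and 4 as red circles, squares and triangles and hippocampi as blue dots. Homeostatic microglial genes lie at 3211% of the hippocampal mean or more and excitatory neuron genes at 1.18% or less, while for the endothelial, mural and choroid plexus lists the microglia libraries lie on both sides of the hippocampi.

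Genes of basic metabolism also took different shares of the libraries. Of 77 ribosomal protein genes, 71 were higher in microglia and none was lower, 20 of them by at least 4-fold, with a median of 1.44 and sums of 20519, 18577 and 15217 CPM against 5924 to 6245 CPM. Rplp0 was at 1236, 1548 and 1182 CPM against 242 to 296 CPM and Fau, the precursor of a small subunit protein, at 743, 741 and 593 CPM against 82.9 to 104 CPM. Rpl22 and Rpsa were among the 6 not called, and processed copies of these genes can share reads. Under TMM scaling 76 of the 77 were higher, 38 of them by at least 4-fold, and the median was 1.93. Of 74 nuclear genes of oxidative phosphorylation, 62 were lower and none higher, 15 of them by at least 4-fold. Their median of -1.21 was close to the -1.13 of all genes, and under TMM scaling it was -0.74 with 47 lower and 2 higher. Atp5b, a catalytic subunit of ATP synthase, was at 408, 661 and 550.3 CPM against 2225 to 2640.0 CPM, and Ndufv2 of complex I at 30.7, 17.9 and 24.1 CPM against 184 to 256 CPM. The mitochondrially encoded genes are not among the genes used here.

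Of 19 enzymes of cholesterol synthesis, counted apart from the transport genes of their list after the values were seen, 15 were lower in microglia, 10 of them by at least 4-fold, and Ebp, a sterol isomerase, was higher (1.09 ± 0.22). Of all 29 members, 11 were at least 4-fold lower, 8 lower by less and 6 higher, with a median of -1.54. These shares of the whole list lie near the 51.6% and 30.9% of all genes, and edgeR and DESeq2 each called 7 of its members at least 4-fold lower. Of the 19 enzymes, edgeR and DESeq2 each called 11 lower, 6 of them by at least 4-fold. Hmgcs1, an early enzyme of the pathway, was at 76.3, 52.8 and 17.8 CPM against 276 to 354 CPM. Sqle was at 46.7, 0.0475 and 0.0275 CPM against 116 to 166 CPM, near 0 in libraries 3 and 4, and its call did not hold in DESeq2 or edgeR. The exporters Abca1 (102, 103 and 75.7 CPM against 20.7 to 40.4 CPM) and Abcg1 (314, 514 and 416 CPM against 109 to 147 CPM) were higher, by 1.65 ± 0.25 and 1.66 ± 0.18.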

How the data were processed

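RNA was isolated with TRIzol. For the libraries, the labels name a strand-specific kit with selection of polyadenylated RNA and the methods of the study a modified Smart-Seq2 protocol, which is not settled here. Per the methods, the authors used STAR with mm10 for alignment, RSEM for counting and DESeq2 for normalization, and they deposited 1 table for each treatment contrast, in which a signal value is a count divided by the size factor of its library. Whole counts were recovered from the deposited signal values: 100% of the values came within 0.01 of a whole read. The hippocampal libraries stand in 2 tables, from which 0 of 122055 recovered values differed, so the separate normalization of the tables did not enter the comparison. The fold changes and p-values of the authors' own contrasts in the deposited tables were not used.

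The test was made on CPM over the 24411 listed genes, as log2(CPM + 1), in limma with a trend (R 4.3.3, limma 3.58.1), over genes at 1 CPM or more in at least 3 of the 8 libraries, and its p-values were adjusted by Benjamini-Hochberg over all 14181. A difference understates the change of genes near 0. A fold against a group without a read used a floor of 3 reads over that group, and such floors cover counting error only, since PCR reads are not independent molecules. Scripts were tested on simulated counts. Alternatives were another pseudocount, filter or scaling, group weights, thinned reads, edgeR 4.0.16, DESeq2 1.42.0 and leaving out each library; the total without Rn45s was added after the data were seen. Names and RefSeq windows were joined by symbol; 23194 of the 24411 genes had coordinates and 17224 a window. Reads of near-identical copies (alpha globins, Hspa1a and Hspa1b, H2 genes, ribosomal proteins) are uncertain.

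The libraries, gene lists and motifs were chosen with earlier results of these data known. The genes named were the 4 markers, the 12 largest differences in each direction at 50 CPM or more without overlap, in each list the 4 members with most reads, the 2 highest and 2 lowest differences and those called against its median, the genes the study names, and the 5 genes that took most reads of each group. Syn1 and Tgfbr1 were named after their values were seen. Some genes that the rule names are not reported here.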

Additional observations from a re-analysis of the deposited data

Results flagged for a closer look

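In 26 of 292 groups of 5 hippocampi examined, 1 library lay far from the other 4, where chance gives about 1 in 20. The gap of each to its nearest neighbour was past the 95% critical share of their range in Dixon's test, and no cause was tested.

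Hippocampus 7155 was high in the sum of the interferon response list and in several myeloid genes. Its interferon response list summed to 340.3 CPM (median of the 5, 284 CPM), and it was high in H2-DMb1 (11.6 CPM, median 6.65 CPM), Mrc1 (10.5 CPM, median 2.78 CPM), Chil3 (1.08 CPM, median 0 CPM), Clec12a (0.462 CPM, median 0.111 CPM), S100a9 (0.462 CPM, median 0.116 CPM) and the astrocyte transporter Slc1a2 (1196 CPM, median 1042 CPM). It was low in Nfkb1 (5.39 CPM, median 8.14 CPM), the ATP synthase gene Atp5b (2225 CPM, median 2560.2 CPM) and Atp6v0c (1059 CPM, median 1298 CPM). The values of Chil3, Clec12a and S100a9 rest on few reads, with 9 reads of Chil3 over the 5 hippocampi together.

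Hippocampus 7152, which held far less choroid plexus RNA than the others, was high in the neuronal genes Camk2a (11394 CPM, median 7608 CPM) and Bdnf (103 CPM, median 73.4 CPM), and in Ackr3 (25.03 CPM, median 19.1 CPM), Atf3 (2.67 CPM, median 1.14 CPM) and Rpl22 (41.1 CPM, median 33.7 CPM). It was low in Cd79b (0.116 CPM, median 0.651 CPM), Etv1 (63.7 CPM, median 94.4 CPM) and Igtp (8.92 CPM, median 11.4 CPM).

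Hippocampus 7146 was high in the matrix gene Dcn (198 CPM, median 105 CPM), in Hba-a2 (12.9 CPM, median 0 CPM) and in Atp6ap1 (886 CPM, median 822 CPM), and low in the microglial genes Trem2 (20.0 CPM, median 29.3 CPM) and Mertk (33.9 CPM, median 46.7 CPM) and in Tap2 (31.2 CPM, median 43.8 CPM), a peptide transporter for MHC class I. Hippocampus 7143 was high in the astrocyte enzyme Aldh1l1 (160.4 CPM, median 126 CPM), and hippocampus 7596 in Rarres2 (9.45 CPM, median 5.98 CPM), the precursor of chemerin.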

How the results depend on the processing

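The 3 counts of called genes stayed within 1.5 times their value in 62 of 63 recomputed values. The exception was the number of genes at least 4-fold lower, which was 2746 with a pseudocount of 4 in place of 4389, since a larger pseudocount shrinks the difference of genes near 0. Leaving out each library gave 8941 to 10655 called genes, 1095 to 1180 at least 4-fold higher and 4226 to 4575 at least 4-fold lower, and the highest of each came without microglia library 2. edgeR called 7789 genes, DESeq2 8853 and limma with group weights 7794. TMM scaling moved the split of calls from 2271 higher and 7320 lower to 2986 higher and 6026 lower. The markers kept their direction and call under all alternatives, and leaving out each library gave 6.03 to 6.14 for Tmem119, 5.14 to 5.42 for P2ry12, 4.96 to 5.41 for Csf1r and -11.87 to -10.58 for Snap25. Of 254 single genes, 33 lost a call and 31 gained one under some alternative, and medians of gene lists moved by more than the spread between libraries in 119 recomputed values and stayed within it in 595. Values of 20 genes lay on both sides of 0. For 16 of these, neither the value reported nor the value of opposite sign was called. The direction of a called value turned for Hsp90aa1 (0.0499) and Lrp1 (0.0562) under TMM scaling, which raises microglial values relative to hippocampus. It turned for Nlrc5, an activator of MHC class I genes, and for Olig2, an oligodendrocyte factor. Leaving out each library gave -0.72 to 0.69 for Nlrc5, lowest without microglia library 3, and -0.92 to 0.65 for Olig2, lowest without microglia library 2; the cause was not tested. No paired analysis was possible because the microglia libraries and the hippocampi share no replicate numbers. Depth limits statements on genes at 0 reads in microglia to 0.0388 CPM over the 3 libraries together.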
